A study of Mus musculus with 95 samples.

Results

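The 10 genes described here are well-known targets that glucocorticoid hormones induce in mammalian cells: Tsc22d3, Per1, Sgk1, Zbtb16, Klf9, Mt1, Mt2, Pdk4, Cdkn1a and Ddit4. They were chosen by gene name from a table of 54532 genes, and all 10 were in it, had counts in the libraries of both brain regions and passed the filter on low counts in each of the 30 comparisons. Their raw read counts were followed across 95 RNA-seq libraries of mouse brain. The genes had been chosen with earlier results of these data known, so they stand for a known hormone response and are not a sample of all genes.

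The libraries were made from total RNA of untreated C57BL/6 mice of 2 lines, labelled FKBP51-Nex-Cre (Nex line) and FKBP51-Dlx-Cre (Dlx line), in which Fkbp5, the gene for FKBP51, is deleted by a Cre driver. Nex-Cre is known to act in forebrain glutamatergic neurons and Dlx-Cre in forebrain GABAergic neurons, so other cells of a sample keep the gene. In both lines, knockout and wild-type mice of either sex gave 2 regions, dorsal hippocampus and bed nucleus of the stria terminalis. This gives 16 groups, each of 6 libraries apart from 5 for the knockout males of the Nex hippocampus. Every animal was at baseline with no hormone or stress applied, the brains were snap-frozen, and the labels state 5 to 6 mice per condition. The ages, the time of day at death and the alleles that the wild types carry are not given in the sources used here.

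Glucocorticoids, corticosterone in mice, bind the glucocorticoid receptor, which then enters the nucleus, binds short palindromic DNA elements and raises transcription of nearby genes. FKBP51 is a co-chaperone that holds the receptor in a state of low affinity for the hormone, and its own gene is a target of the receptor, which closes a short feedback loop. In the hippocampus, which is rich in both the glucocorticoid and the mineralocorticoid receptor, and in the bed nucleus, a relay of stress signals to the hypothalamus, the level of such target genes is widely read as a measure of hormone action. The comparisons here ask whether their baseline levels differ with loss of FKBP51, with sex, with the line and with the region.

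Libraries held between 19.6 and 31.2 M counts, and the median library 22.4 M. All libraries had counts for 23552 to 26414 genes, apart from replicate 8 of the knockout females of the Dlx hippocampus with 17863. Levels are counts-per-million (CPM) on 1 TMM scale over all 95 libraries, with SDs taken over a group's libraries, and CPM per kilobase of gene length where genes are compared with each other. Sex-linked genes matched the labelled sex in 47 of 47 male and 48 of 48 female libraries. The summed level of 10 markers of hippocampal and cortical glutamatergic neurons was 4764 to 8858 CPM in 46 hippocampus libraries and 3282 CPM in replicate 8, against 878 to 1891 CPM in the 48 bed nucleus libraries. Of these 10 markers none was at 0 in any hippocampus library. The sum of 10 markers of GABAergic and ventral forebrain neurons was 402 to 962 CPM in the hippocampus and 2147 to 3661 CPM in the bed nucleus, with none of the 10 at 0 there, and in the hippocampus the median of Isl1 was 0. The targeted gene Fkbp5 averaged 27.3 CPM in knockouts against 54.3 CPM in wild types among males of the Nex hippocampus, and 27.7 against 58.3 CPM among females. In the Dlx bed nucleus it averaged 6.25 against 33.3 CPM among males and 8.43 against 26.6 CPM among females. In the Dlx hippocampus and the Nex bed nucleus its log2 fold change lay between -0.09 and 0.17, and its level there does not separate the genotypes.

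Replicate 8 of the knockout females of the Dlx hippocampus stood apart from its group in 5 of the 10 genes. It had 1517 CPM of Mt1 and 95.2 CPM of Mt2, against 164 to 250 and 3.88 to 6.52 CPM in the other 5 libraries of its group. It had 0.935 CPM of Klf9, 0.880 CPM of Pdk4 and 8.58 CPM of Zbtb16, each below all other hippocampus libraries. Its 14.5 CPM of Ddit4 was also the lowest of the hippocampus, where the other libraries had 26.4 CPM or more. Its 63.6 CPM of Tsc22d3 and 7.37 CPM of Cdkn1a were the highest, close to the next libraries with 60.5 and 7.33 CPM. Its mitochondrial transcripts summed to 8393 CPM, where the median of the other hippocampus libraries was 32891 CPM, and its microglial markers summed to 980 CPM against a median of 413 CPM. Many results of the Dlx hippocampus are therefore given also without it.

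**Figure D1:**
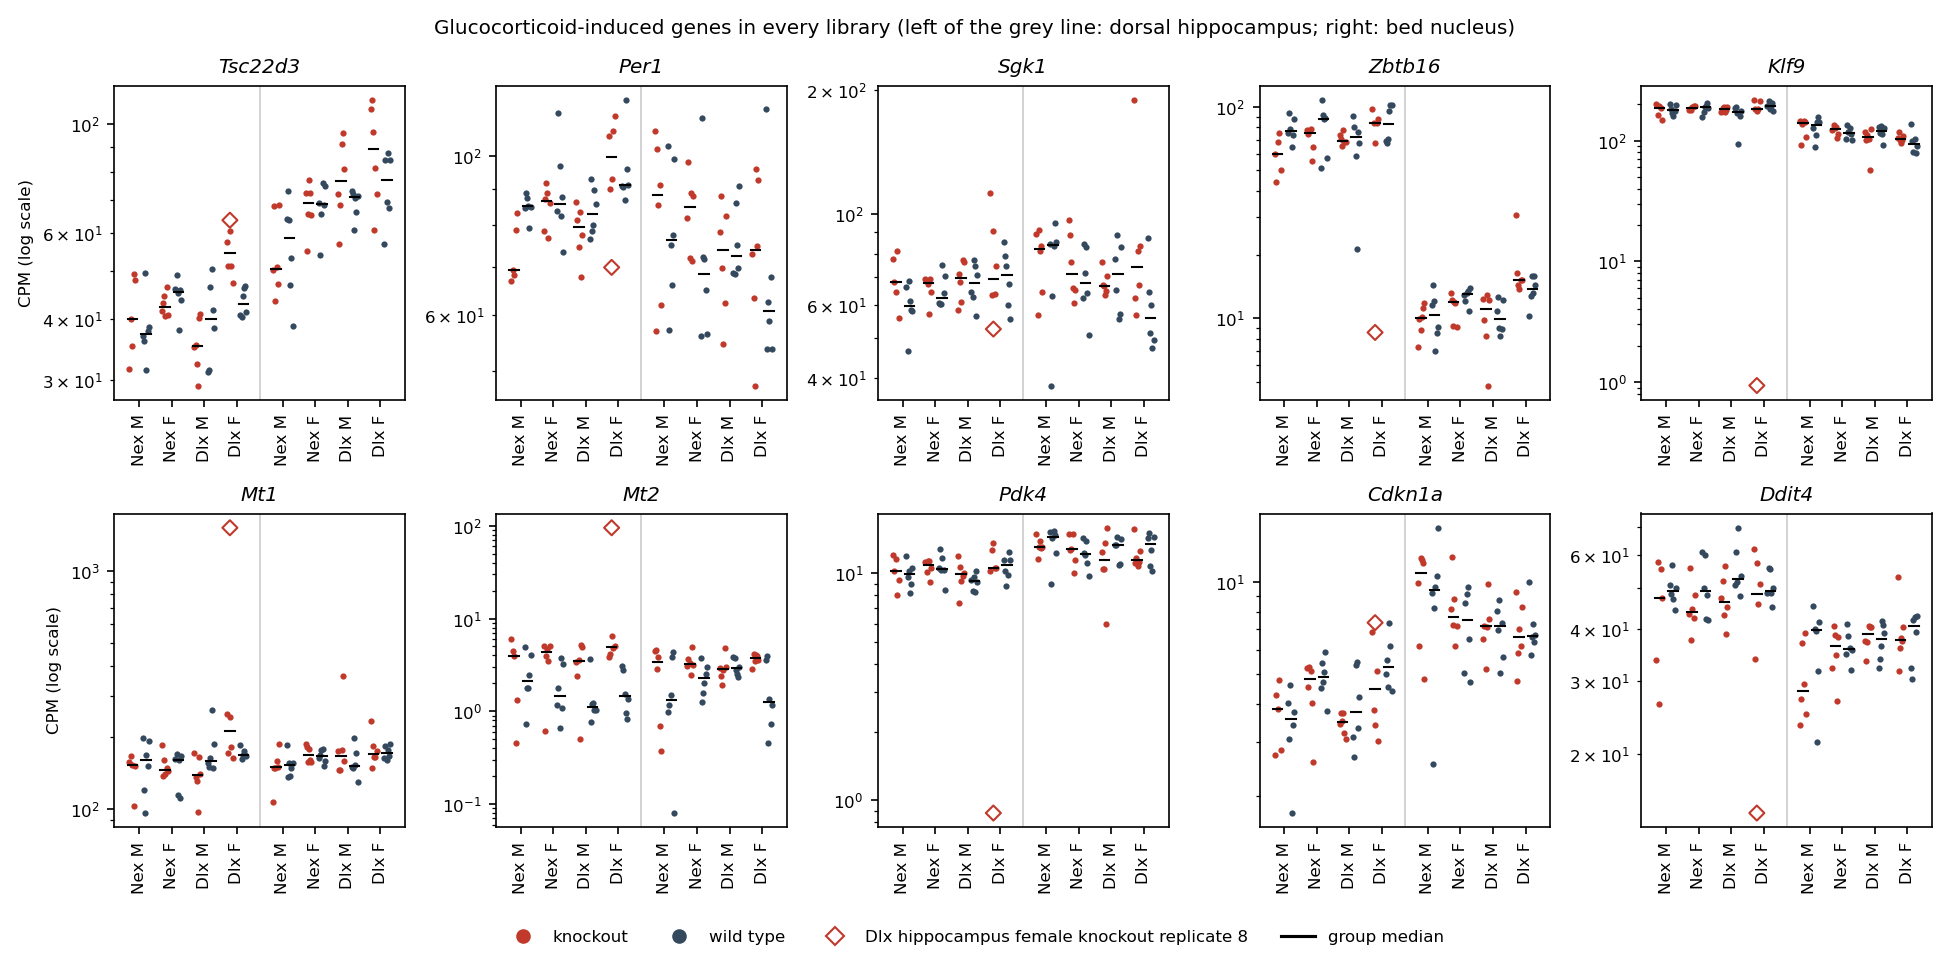
CPM (log axis) of the 10 genes in each of the 95 libraries, one panel per gene, with hippocampus groups left of the grey line and bed nucleus groups right of it, and knockouts left of their wild types. Points are libraries, bars are group medians and the diamond is replicate 8 of the knockout females of the Dlx hippocampus. Zbtb16 lies between 21.3 and 107 CPM in wild-type hippocampus libraries and between 7.01 and 15.9 CPM in wild-type bed nucleus libraries, and within each region knockout and wild-type points overlap in nearly every pair.

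The promoter sequences were searched for the receptor's element and other short elements just before the starts. RefSeq promoters of GRCm38.p6 were at hand for 9 of the 10 genes, with 18 starts, and the 250 bases before each start were searched. The full palindromic element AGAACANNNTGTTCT, searched on both strands, occurred in 3 of 32851 promoters (0.00913%), and 1 of these belongs to Sgk1, a kinase that acts on ion channels and transporters. The looser core GNACANNNTGTNC, which also matches inside the full element, occurred in 0.387% of promoters, and in 2 of the 18 starts, those of Sgk1 and Mt1. The single element TGTTCT, one arm of the palindrome, occurred in 16.1% of all promoters. The Sgk1 sequence is the plus strand of chr10:21993640-21993889, ending just before the start, and capitals mark the full element, which begins 189 bases before the start.
Sgk1: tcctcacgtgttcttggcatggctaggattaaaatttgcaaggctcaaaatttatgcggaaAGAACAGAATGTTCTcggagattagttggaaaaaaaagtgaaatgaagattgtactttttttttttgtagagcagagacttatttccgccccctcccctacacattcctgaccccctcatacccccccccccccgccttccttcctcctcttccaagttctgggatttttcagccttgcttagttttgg
In Mt1, which codes for a small cysteine-rich protein that binds zinc and copper, the core lies 94 bases before the start. Capitals in its 250 bases, chr8:94178839-94179088 on the plus strand, mark that core and, near the end, 1 match to TGCNCNC, the core of the metal response element, which 44.4% of promoters hold.
Mt1: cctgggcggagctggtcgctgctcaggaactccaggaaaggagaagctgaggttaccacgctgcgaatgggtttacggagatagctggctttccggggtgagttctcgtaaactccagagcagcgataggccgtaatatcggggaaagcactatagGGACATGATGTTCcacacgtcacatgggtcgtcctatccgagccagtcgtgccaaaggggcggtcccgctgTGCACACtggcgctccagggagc
Its neighbour and paralog Mt2, with the same function, has 5 matches to TGCNCNC and none to the core of the receptor's element in chr8:94172368-94172617, plus strand, where capitals mark the 5 matches on either strand.
Mt2: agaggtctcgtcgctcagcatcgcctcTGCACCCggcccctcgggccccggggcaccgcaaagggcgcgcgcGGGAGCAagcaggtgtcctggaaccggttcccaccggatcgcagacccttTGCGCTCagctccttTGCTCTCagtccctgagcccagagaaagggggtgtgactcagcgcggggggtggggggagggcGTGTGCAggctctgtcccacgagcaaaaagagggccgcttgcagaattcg
Per1 codes for a repressor of the circadian clock, which hormone pulses and neuronal activity can induce. In chr11:69098699-69098948, plus strand, capitals mark 1 E-box, CACGTG, the element of the clock activators, which begins 166 bases before that start and occurs in 6.02% of promoters.
Per1: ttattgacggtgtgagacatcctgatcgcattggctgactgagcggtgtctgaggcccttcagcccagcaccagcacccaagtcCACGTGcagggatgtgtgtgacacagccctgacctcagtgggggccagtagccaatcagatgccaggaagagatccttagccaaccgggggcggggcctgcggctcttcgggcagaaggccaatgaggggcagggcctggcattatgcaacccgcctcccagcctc
These matches describe the letters of short windows and say nothing of binding at them, or of receptor sites farther away, where many known ones lie.

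The first question was at what level each target was present at baseline. Per kilobase of gene length, and with replicate 8 left out, Mt1 was the most abundant of the 10 in the hippocampus, with 130 ± 16.6 CPM per kb (SD over the 8 group means). Klf9, a zinc finger transcription factor that thyroid hormone also induces, followed with 56.0 ± 3.07, and Ddit4, an inhibitor of the growth kinase complex mTORC1, with 28 ± 2.09 CPM per kb. Per1, Zbtb16 and Sgk1 had 15.4 ± 1.64, 14.1 ± 1.71 and 14 ± 1.23 CPM per kb, and these neighbours do not differ beyond their spread. Tsc22d3, which codes for the anti-inflammatory leucine zipper protein GILZ, had 9.75 ± 1.25 CPM per kb. Mt2 had 4.92 ± 1.97, Pdk4 2.94 ± 0.205 and Cdkn1a 1.20 ± 0.206 CPM per kb. The place of Mt2 is uncertain in both regions, since 73.5% of its exon bases are shared with an antisense gene. In the bed nucleus the order was the same for the first 3, Mt1 with 135 ± 11.4, Klf9 with 35.1 ± 3.54 and Ddit4 with 20.8 ± 1.62 CPM per kb. Tsc22d3 came next there with 16 ± 2.52 CPM per kb, close to Sgk1 with 15.0 ± 1.77 and Per1 with 13.6 ± 0.983, and Zbtb16 stood near the end with 2.27 ± 0.504, level with Cdkn1a at 2.19 ± 0.285 CPM per kb.

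How much a gene varied among libraries of 1 group differed widely among the 10. On the scale of log2(CPM + 0.5) the pooled SD within groups of the hippocampus, without replicate 8, was 0.784 for Mt2, a spread that 0.851% of 15755 genes reached, while the median gene had 0.195. It was 0.366 for Zbtb16, 0.319 for Cdkn1a and 0.277 for Mt1, and smallest of the 10 for Per1 with 0.141. In the bed nucleus Mt2 again varied most with 0.696, a spread that 1.43% of genes reached, and Per1 and Sgk1 varied more than in the hippocampus, with 0.141 in the hippocampus and 0.321 in the bed nucleus for Per1, and 0.204 and 0.361 for Sgk1. With replicate 8 the hippocampal SD of Klf9 was 1.05 in place of 0.177.

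Between the regions, the hippocampus had several-fold more Zbtb16 than the bed nucleus and more Klf9 and Ddit4, and it had less Tsc22d3, Cdkn1a and Pdk4. Mt1 and Sgk1 passed the test in neither direction in any of the 4 comparisons. Among wild types, the quasi-likelihood test of edgeR, Benjamini-Hochberg adjusted, called 5 of the 10 genes in Nex males, where 35.7% of all tested genes were called at an adjusted p under 0.05. It called 6 in Nex females (52.8% of all genes), 7 in Dlx males (46.7%) and 2 in Dlx females (30%), or 6 in Dlx females without replicate 8 (46.5%), so the number called is in the range of the background. The calls went both ways, with 2 higher and 3 lower in the hippocampus in Nex males, 4 and 2 in Nex females, 3 and 4 in Dlx males, and 1 and 1 in Dlx females. The median log2 fold change of the 10 was 0.06, -0.14, 0.03 and 0.09 in these 4 comparisons, against -0.02, -0.00, 0.01 and -0.01 for all genes. In bulk tissue a lower level can mean fewer cells of a type or less RNA per cell, which cannot be told apart.

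Zbtb16 (ENSMUSG00000066687, chromosome 9, 48654297 to 48836222, minus strand) codes for PLZF, a zinc finger transcription factor. In Nex wild-type males it ranged from 64.8 to 93.4 CPM in the hippocampus, with a median of 76.9, and from 7.01 to 14.3 CPM in the bed nucleus, with a median of 10.4. In Dlx wild-type females it ranged from 67.5 to 102 CPM in the hippocampus with a median of 82.6, and from 10.3 to 15.9 CPM in the bed nucleus with a median of 13.8. The groups did not overlap in any of the 4 pairs, although Dlx wild-type males included a hippocampus library at 21.3 CPM. For this gene and those below, the share of all genes without overlap between the regions is not given here. Hippocampus over bed nucleus, the log2 fold change was 2.92 (SE 0.17) in Nex males, with an adjusted p of 2.45e-12, and 2.66 (SE 0.15) in Nex females, with 8.35e-14 (edgeR's quasi-likelihood test). It was 2.67 (SE 0.24) in Dlx males, with 1.46e-09, and 2.60 (SE 0.34) in Dlx females, with 2.31e-06 by the same test.

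Klf9 (ENSMUSG00000033863, chromosome 19, 23141226 to 23166911, plus strand) was at 158 to 207 CPM in the hippocampus of Nex wild-type females, with a median of 188, and at 100 to 135 CPM in their bed nucleus, with a median of 115. These groups did not overlap, and neither did those of 2 of the other 3 pairs. On the log2 scale the difference was 0.51 (SE 0.13, adjusted p 0.00273) in Nex males, 0.68 (SE 0.07, adjusted p 1.05e-08) in Nex females and 0.46 (SE 0.15, adjusted p 0.0125) in Dlx males (edgeR's quasi-likelihood test). In Dlx females it was 0.96 (SE 0.49) with an adjusted p of 0.155, and without replicate 8, a knockout library that widens the spread of that fit, 0.95 (SE 0.10) with 3.66e-08 by the same test. Ddit4 (ENSMUSG00000020108, chromosome 10, 59949669 to 59951834, minus strand) had 48.0 to 69.8 CPM in the hippocampus of Dlx wild-type males, median 52.7, and 32.2 to 41.6 CPM in their bed nucleus, median 37.8. Every hippocampus library of that pair lay above every bed nucleus library, as in 3 of the 4 pairs. Its log2 fold change was 0.48 (SE 0.11, adjusted p 0.000498) in Nex females and 0.58 (SE 0.10, adjusted p 1.84e-05) in Dlx males, and edgeR's quasi-likelihood test did not call it in Nex males (0.44, adjusted p 0.0601) or in Dlx females (0.39, adjusted p 0.18, and 0.0201 without replicate 8).

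Tsc22d3 (ENSMUSG00000031431, chromosome X, 140539528 to 140600659, minus strand) went the other way. In Dlx wild-type females it had 40.3 to 46.7 CPM in the hippocampus, median 42.8, and 56.9 to 87.2 CPM in the bed nucleus, median 76.9. In Nex wild-type males it had 31.4 to 49.5 CPM in the hippocampus, median 37.2, and 38.6 to 73.1 CPM in the bed nucleus, median 58.5. The Dlx female groups stood clear of each other, the Nex male groups overlapped, and 3 of the 4 pairs did not overlap. By edgeR's quasi-likelihood test the log2 fold change was -0.56 (SE 0.15, adjusted p 0.00606) and -0.61 (SE 0.08, adjusted p 4.88e-07) in Nex males and females, and -0.79 (SE 0.12, adjusted p 8.22e-06) and -0.81 (SE 0.14, adjusted p 6.4e-05) in Dlx males and females.

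Cdkn1a (ENSMUSG00000023067, chromosome 17, 29090976 to 29100727, plus strand) codes for p21, an inhibitor of cyclin-dependent kinases, and was low in both regions. In Nex wild-type males it had 1.77 to 4.61 CPM in the hippocampus, median 3.59, and 2.56 to 15.0 CPM in the bed nucleus, median 9.44. The ranges overlap at their low end, and edgeR's quasi-likelihood test called the gene lower in the hippocampus in Nex males (-1.41, SE 0.30, adjusted p 0.000639), Nex females (-0.57, SE 0.19, adjusted p 0.0143) and Dlx males (-0.79, SE 0.17, adjusted p 0.000475), and not in Dlx females (-0.39, adjusted p 0.205, and -0.40, adjusted p 0.092, without replicate 8). Of its exon bases 7.68% are shared with an unclassified transcript on the other strand, AC167363.2, and the sources used here do not give the strand setting of the counts. Pdk4 (ENSMUSG00000019577, chromosome 6, 5483351 to 5496309, minus strand), a kinase that shuts off pyruvate dehydrogenase and so spares glucose, had 8.27 to 10.2 CPM in the hippocampus of Dlx wild-type males, median 9.22, and 10.9 to 14.4 CPM in their bed nucleus, median 13.3. These groups did not overlap, which held for 1 of the 4 pairs. It was called lower in the hippocampus in Nex males (-0.44, SE 0.12, adjusted p 0.00737) and Dlx males (-0.49, SE 0.15, adjusted p 0.0107), and by edgeR's quasi-likelihood test not in Nex females (-0.20, adjusted p 0.126) or Dlx females (-0.29, adjusted p 0.553). Without replicate 8 it was also called lower in Dlx females (-0.30, SE 0.12, adjusted p 0.0408).

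Per1 (ENSMUSG00000020893, chromosome 11, 69095217 to 69109960, plus strand) had 73.3 to 115 CPM in the hippocampus of Nex wild-type females, median 85.6, and 56.1 to 113 CPM in their bed nucleus, median 68.4. The ranges overlap widely, and the call in these females was close to the threshold (0.31, SE 0.13, adjusted p 0.0479, edgeR's quasi-likelihood test). In the other 3 comparisons the log2 fold change was 0.10, 0.13 and 0.46, with adjusted p of 0.641, 0.289 and 0.0501 by the same test, and in the last of these, Dlx females, Per1 was called without replicate 8 (0.45, SE 0.17, adjusted p 0.0293). Mt2 (ENSMUSG00000031762, chromosome 8, 94172664 to 94173568, plus strand) was called in Dlx males alone, lower in the hippocampus, with 0.774 to 3.69 CPM, median 1.12, against 2.33 to 3.83 CPM, median 2.91, in the bed nucleus (-1.03, SE 0.39, adjusted p 0.0314, edgeR's quasi-likelihood test). Sgk1 (ENSMUSG00000019970, chromosome 10, 21882184 to 21999903, plus strand) and Mt1 (ENSMUSG00000031765, chromosome 8, 94179082 to 94180327, plus strand) differed by -0.32 to 0.21 and by -0.18 to 0.16 on the log2 scale, and their smallest adjusted p were 0.134 and 0.107 in edgeR's quasi-likelihood test.

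**Figure D2:**
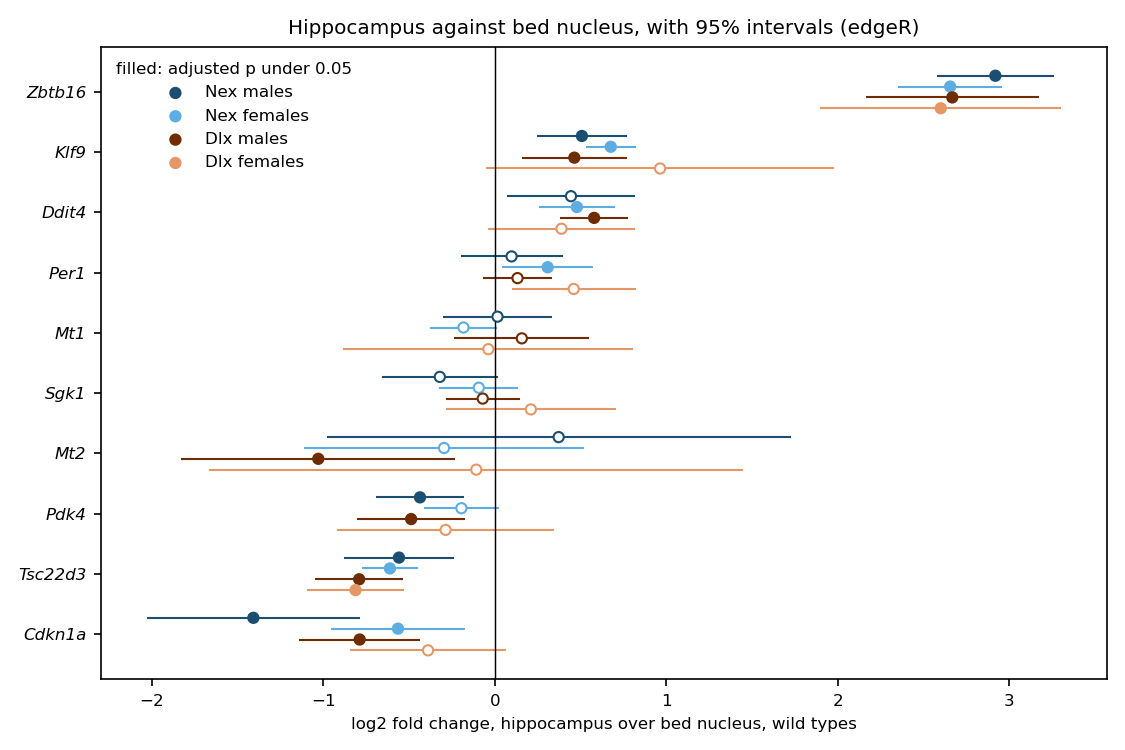
Log2 fold change of the 10 genes, hippocampus over bed nucleus, in wild types of each line and sex, with 95% intervals from edgeR's quasi-likelihood test; filled points have an adjusted p under 0.05. Zbtb16 lies between 2.60 and 2.92 in all 4 comparisons, Tsc22d3 between -0.81 and -0.56, and Mt1 and Sgk1 between -0.32 and 0.21.

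Cell types moved with the region along with these genes. Of the 8 oligodendrocyte markers 8 were called lower in the hippocampus in each comparison, with sums of 2303 to 8531 CPM, median 4433, in hippocampus libraries without replicate 8 and 8549 to 17994 CPM, median 12433, in bed nucleus libraries. Of the 10 GABAergic and ventral forebrain markers 8 were called lower in each. None of the oligodendrocyte markers was at 0 in any library. The part of these markers in the differences of the 10 genes was not tested.

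Other genes of the pathway were counted from a list of 26 further glucocorticoid-induced genes, of which 25 were tested. In the hippocampus 7 were called higher and 2 lower in Nex males, 8 and 4 in Nex females, 8 and 8 in Dlx males and 7 and 1 in Dlx females, in each case beside the background shares above. Among them Cebpd, a transcription factor of the acute phase response, had log2 fold changes of 3.24, 2.83, 3.31 and 2.64 in these 4 comparisons. Rasd1, a small GTPase first found as a dexamethasone-induced gene, had 3.23, 2.44, 1.45 and 3.87. Hsd11b1, the enzyme that regenerates active corticosterone within cells, had 2.51, 2.27, 2.17 and 2.18, and Cebpb, a relative of Cebpd, 2.40, 2.14, 2.50 and 2.02. These genes were picked by fold change, and the members called lower are not named. Fkbp5 itself was higher in the hippocampus in all 4, by 0.79, 0.94, 0.89 and 1.05 on the log2 scale. Of 14 genes of the receptor machinery (receptors, chaperones and coregulators) 6 or 7 were called higher and 0 to 2 lower, led by Nr3c2, the mineralocorticoid receptor, with 2.22, 2.14, 2.17 and 2.45. Of 15 clock genes 4 to 7 were higher and 1 to 6 lower, with Bhlhe40, a repressor in the clock, at 1.02, 0.96, 0.57 and 1.0. The counts of both lists stand beside 35.7%, 52.8%, 46.7% and 30% of all genes called in the same comparisons.

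Loss of FKBP51 was the study's main question, and none of the 10 genes was called between knockouts and wild types in any line, region or sex. The same fits called 0.0106% of all genes in males and 0.0106% in females of the Nex hippocampus, 0% and 0% in the Nex bed nucleus, 0.00539% and 0.00539% in the Dlx bed nucleus, and 0% and 0% in hippocampi of the Dlx line, so a count of 0 for 10 genes equals the background. Averaged over the sexes the shares were 0.0106%, 0%, 0.00539% and 0% in the same order of line and region, again with 0 of the 10 called and with 2, 0, 0 and 1 of them at an unadjusted p under 0.05. Of all genes 10.5%, 2.16%, 2.07% and 4.68% had such an unadjusted p. At an unadjusted p under 0.05, edgeR's quasi-likelihood test had 3 of the 10 genes in males of the Nex hippocampus, 3 in females of the Dlx hippocampus, 2 in females of the Dlx bed nucleus and 0 in the other 5 comparisons, beside 9.93%, 10.6% and 5.66% of all genes in the first 3. Without replicate 8 the Dlx hippocampus had 2 in males, Mt1 with an unadjusted p of 0.022 and Mt2 with 0.011, and 2 in females, Mt2 and Tsc22d3, and the smallest adjusted p there were 0.386 in males and 0.756 in females by the same test. DESeq2 called 0 of the 10 in all 8 comparisons, and limma with library quality weights called 1, Mt2 in females of the Dlx bed nucleus. The median log2 fold change of the 10 genes lay between -0.06 and 0.10 in the 8 comparisons, and that of all genes between -0.01 and 0.01. The intervals bound a change of the bulk level only, and do not bound one confined to the cells that lose Fkbp5. They are given on the log2 scale, averaged over the sexes. Leaving out Mt2, the 95% intervals of the other 9 genes reached from -0.52 to 0.27 in the Nex hippocampus. They reached from -0.38 to 0.52 in the Nex bed nucleus and from -0.36 to 0.57 in the Dlx bed nucleus. In the Dlx hippocampus they reached from -0.77 to 1.11 with replicate 8 and from -0.55 to 0.36 without it. The interval of Mt2 there, without replicate 8, was 0.70 to 1.94. Within 1 sex some intervals reached farther, to 1.02 for Sgk1 in Dlx bed nucleus females and to -0.73 for Zbtb16 in Nex hippocampus males.

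**Figure D3:**
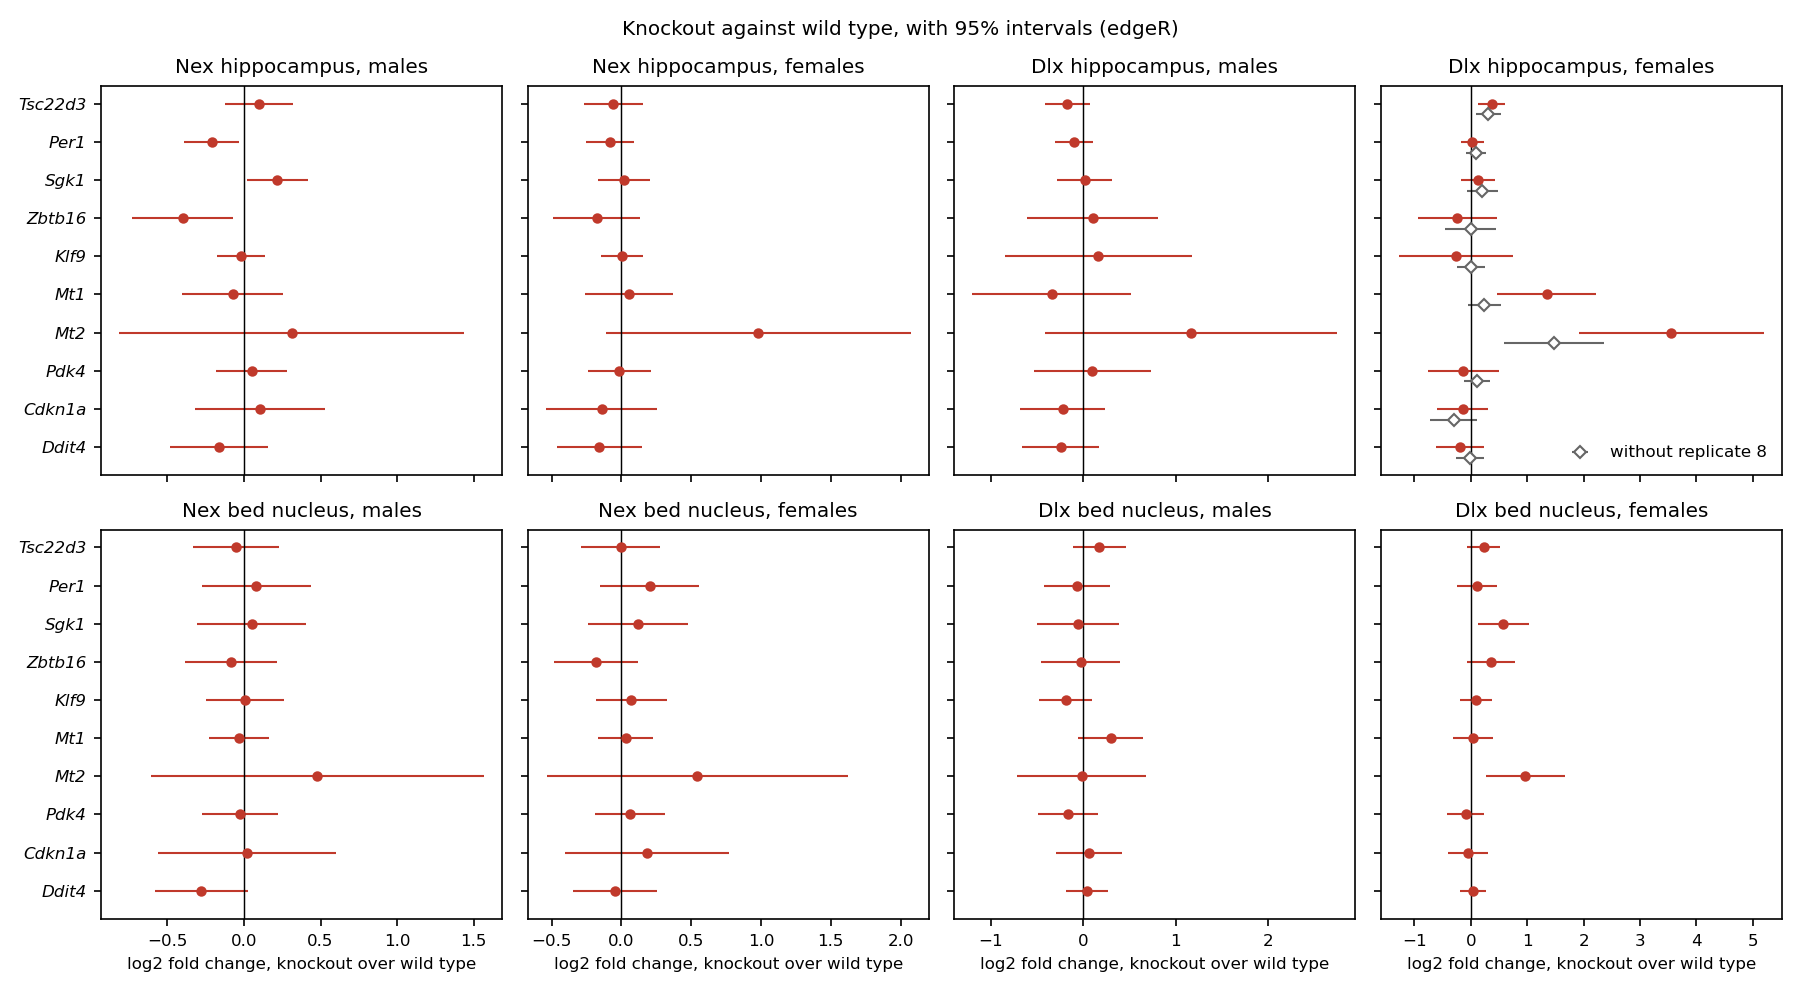
Log2 fold change of the 10 genes, knockout over wild type, with 95% intervals from edgeR's quasi-likelihood test in the 8 combinations of line, region and sex; the x range differs between columns of panels, and open diamonds leave out replicate 8 of the knockout females of the Dlx hippocampus. Most intervals span 0, Mt2 has the widest, and its estimate in the Dlx hippocampus of females is 3.56 with and 1.47 without replicate 8.

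Tsc22d3 in females of the Dlx hippocampus was at 57.5, 51.4, 60.5, 51.4 and 47.4 CPM in the 5 knockout libraries 6, 7, 18, 19 and 21 and at 63.6 CPM in replicate 8, against 40.3 to 46.7 CPM, median 42.8, in wild types. All 6 knockout libraries lay above all 6 wild types. The share of all genes that separate as fully is not given here, and 10.6% of all genes had an unadjusted p under 0.05 in this comparison. The log2 fold change was 0.37 (SE 0.12), which edgeR's quasi-likelihood test gave an unadjusted p of 0.0048 and an adjusted p of 0.460, and without replicate 8 it was 0.31 (SE 0.11) with an adjusted p of 0.906. An exact two-sided permutation test of this gene alone gave 0.00216 with and 0.00433 without replicate 8, in each case the smallest p that the permutations can give and not adjusted for the number of genes. In these females the summed hippocampal and cortical glutamatergic markers were 6809 to 8858 CPM in the 5 knockouts and 3282 CPM in replicate 8, against 7289 to 8467 CPM in wild types, and their part in the level of Tsc22d3 was not tested. In knockout males of the same line and region it had 29.2 to 40.9 CPM, median 35.2, against 31.1 to 50.6 CPM, median 40.0, in wild types. In knockout females of the Dlx bed nucleus it had 60.6 to 112 CPM, median 88.9, against 56.9 to 87.2 CPM, median 76.9, and these groups overlap.

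Sgk1 in females of the Dlx bed nucleus was at 56.8 to 188 CPM in knockouts, median 74.1, against 47.2 to 87.4 CPM, median 55.8, in wild types. The 188 CPM of library 6 is more than any other of the 95 libraries had, and the other 5 knockouts lay between 56.8 and 83.4 CPM, within the range of the wild types. Its log2 fold change was 0.58 (SE 0.22), with an unadjusted p of 0.013 and an adjusted p of 0.843 in edgeR's quasi-likelihood test, and the exact permutation p was 0.102. Without library 6 it was 0.22 (SE 0.14, adjusted p 0.795). The same library had 30.8 CPM of Zbtb16, where the other 5 knockouts had 13.8 to 16.4 CPM and the wild types 10.3 to 15.9 CPM, and the log2 fold change of Zbtb16 there was 0.36 with and 0.12 without it. In knockout males of the Nex hippocampus Sgk1 had 77.7, 68.3, 64.4, 80.9 and 55.8 CPM, against 46.3 to 68.6 CPM, median 59.8, in wild types. The groups overlap (0.22, SE 0.10, adjusted p 0.460, edgeR's quasi-likelihood test). Over the 8 comparisons the log2 fold change of Sgk1 was above 0 in 7, from -0.06 to 0.58.

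Per1 in knockout males of the Nex hippocampus had 67.0, 69.3, 68.1, 78.7 and 83.3 CPM, against 79.3 to 88.7 CPM, median 85.0, in wild types. Of the 5 knockouts 4 lay below all wild types. The log2 fold change was -0.21 (SE 0.09) with an adjusted p of 0.430 in edgeR's quasi-likelihood test, and the exact permutation p was 0.00866, unadjusted. The summed level of 10 immediate early genes, which neuronal activity induces, was 165 to 340 CPM in these knockouts against 255 to 469 CPM in the wild types, and its part in the level of Per1 was not tested. In knockout females of the Nex hippocampus Per1 had 76.9 to 91.8 CPM, median 86.5, against 73.3 to 115 CPM, median 85.6, in wild types. In the bed nucleus the median over all knockout libraries was 80.0 CPM against 69.2 CPM over wild types, and no comparison there was called.

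Among the transcription factors, Zbtb16 in knockout males of the Nex hippocampus had 60.1, 44.0, 68.4, 75.2 and 50.1 CPM, against 64.8 to 93.4 CPM, median 76.9, in wild types. Of the 5 knockouts 3 lay below every wild type. On the log2 scale the difference was -0.40 (SE 0.16), adjusted p 0.421 in edgeR's quasi-likelihood test, with an exact permutation p of 0.0346, and averaged over the sexes it was -0.29 (SE 0.11, adjusted p 0.392). The summed hippocampal and cortical glutamatergic markers were 4764 to 7459 CPM in these knockout males against 5975 to 7857 CPM in the wild types, and their part in the level of Zbtb16 was not tested. In knockout females of the same line and region Zbtb16 ranged from 55.4 to 78.4 CPM, median 75.4, against 51.6 to 107 CPM, median 88.0. In females of the Dlx hippocampus it had 67.7 to 98.1 CPM in the 5 knockouts without replicate 8, against 67.5 to 102 CPM in wild types, and these ranges nearly coincide. Klf9 in the same groups had 177 to 216 CPM, median 183, in the 5 knockouts and 176 to 213 CPM, median 194, in wild types. Its log2 fold changes in the 8 comparisons lay between -0.26 and 0.16.

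Mt2 gave the largest fold changes of the 10 genes, at low levels. In females of the Dlx hippocampus the knockouts had 3.88, 4.13, 6.52, 4.82 and 5.12 CPM in libraries 6, 7, 18, 19 and 21 and 95.2 CPM in replicate 8, against 0.827 to 3.05 CPM, median 1.46, in wild types. Every knockout lay above every wild type, also without replicate 8, and the share of all genes that separate as fully is not given here. The log2 fold change without replicate 8 was 1.47 (SE 0.43), with an unadjusted p of 0.0023 and an adjusted p of 0.756 in edgeR's quasi-likelihood test. In knockout males of the Dlx hippocampus Mt2 had 0.503 to 5.20 CPM, median 3.51, against 0.774 to 3.69 CPM, median 1.12, in wild types. Both groups reach from under 1 to over 3 CPM (1.16, SE 0.77, or 1.17, SE 0.42, in the fit without replicate 8, adjusted p 0.386, edgeR's quasi-likelihood test). Averaged over the sexes of the Dlx hippocampus the log2 fold change was 2.36 (SE 0.55, adjusted p 0.515) with replicate 8 and 1.32 (SE 0.30, adjusted p 0.127) without it, by the same test.

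In females of the Dlx bed nucleus Mt2 had 2.89 to 4.19 CPM, median 3.76, in knockouts, against 3.54, 3.95, 0.456, 1.37, 0.723 and 1.17 CPM in wild-type libraries 1, 3, 9, 10, 11 and 14. The wild types split, with 2 inside the range of the knockouts and 4 below it. On the log2 scale the difference was 0.97 (SE 0.34), adjusted p 0.836 in edgeR's quasi-likelihood test, with an exact permutation p of 0.0303. In knockout females of the Nex hippocampus Mt2 had 0.611 to 5.09 CPM, median 4.35, against 0.658 to 3.79 CPM, median 1.48, in wild types. There 1 knockout lay at the low end of the wild types and the others near or above their high end (0.98, SE 0.53, exact permutation p 0.134). Over all hippocampus libraries the median was 4.13 CPM in 23 knockouts and 1.46 CPM in 24 wild types, and in the bed nucleus 3.24 and 2.41 CPM. Of the exon bases of Mt2 73.5% are shared with the antisense gene Gm45774, which had a median of 9 counts per library beside 68 for Mt2. Without the strand setting reads of the 2 genes cannot be told apart. It is also not known whether reads on the shared bases were counted, so the low level of Mt2 may be an undercount. Reads could also be split with its paralog Mt1.

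Mt1, its paralog, differed less. Without replicate 8 it had 250, 171, 244, 182 and 164 CPM in knockout females of the Dlx hippocampus, against 163 to 186 CPM, median 169, in wild types. Of the 5 knockouts 2 lay above all wild types and 3 within their range (0.24, SE 0.14, adjusted p 0.979, edgeR's quasi-likelihood test). With replicate 8 the log2 fold change was 1.34 (SE 0.42, adjusted p 0.460). In knockout males of the Dlx hippocampus Mt1 had 97.8 to 171 CPM, median 139, against 148 to 262 CPM, median 160. Of the other metal-responsive genes, a list of 6 with Mt3 and zinc transporters, 0 were called in any genotype comparison.

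The remaining targets showed small differences. Ddit4 had a log2 fold change below 0 in 6 of 8 comparisons, from -0.28 to 0.04, and the largest difference was in males of the Nex bed nucleus, with 23.5 to 39.0 CPM, median 28.3, in knockouts against 21.4 to 45.4 CPM, median 39.7, in wild types. These ranges overlap. Pdk4 ranged in its log2 fold change from -0.16 to 0.10 and Cdkn1a from -0.22 to 0.18 over the 8 comparisons. Of the 25 other glucocorticoid-induced genes tested, 1 was called in each comparison of the Nex hippocampus and of the Dlx bed nucleus, and this was Fkbp5 itself, while in the other 4 comparisons 0 were called. None of the 15 clock genes or of the 14 genes of the receptor machinery was called between genotypes by this test. Up to 4 and up to 3 of them had an unadjusted p under 0.05, where 1.39% to 10.6% of all genes had one.

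The difference between the sexes in the response to the knockout was also tested. None of the 10 genes had a called interaction of sex and genotype, where 0% of all genes were called in both regions of both lines. At an unadjusted p under 0.05 there were 3 in the Dlx hippocampus, beside 7.22% of all genes, and 2 without replicate 8. There was 1 in the Dlx bed nucleus, beside 8.88% of all genes. In the Nex line there were 0 in the hippocampus (2.72% of all genes) and 0 in the bed nucleus (1.14%). DESeq2 and limma with library quality weights also called 0. For Tsc22d3 in the Dlx hippocampus the male log2 fold change minus the female one was -0.54 (SE 0.17, adjusted p 0.628), and -0.47 (SE 0.15, adjusted p 0.965) without replicate 8, by edgeR's quasi-likelihood test. For Mt1 it was -1.69 with and -0.57 (SE 0.20) without replicate 8. For Mt2 it was -2.39 with and -0.30 without it. For Sgk1 in the Dlx bed nucleus it was -0.64, with an unadjusted p of 0.048.

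Between males and females of the wild types none of the 10 was called, where the test called 0.117% of all genes in the Nex hippocampus, 0.0535% in the Nex bed nucleus, 0.23% in the Dlx hippocampus and 0.0701% in the Dlx bed nucleus. Cdkn1a in the Nex hippocampus had 1.77 to 4.61 CPM, median 3.59, in males and 3.80 to 5.91 CPM, median 4.91, in females. The groups overlap (-0.50, SE 0.20, unadjusted p 0.018, adjusted p 0.605, edgeR's quasi-likelihood test), and with all libraries this was the only one of the 10 with an unadjusted p under 0.05 in any of the 4 comparisons. Of all genes 6.67% had one in the Nex hippocampus. Without replicate 8, a knockout library that enters the spread of the fit, 3 of the 10 had one in the Dlx hippocampus, Cdkn1a (-0.44, unadjusted p 0.033), Per1 (-0.18, unadjusted p 0.036) and Klf9 (-0.24, unadjusted p 0.045), with adjusted p of 0.167 or more by edgeR's quasi-likelihood test. DESeq2 called 0 of the 10, and limma with library quality weights called 2 in the Dlx bed nucleus. Tsc22d3 had log2 fold changes of male over female of -0.21 and -0.11 in the hippocampus of the Nex and Dlx lines and of -0.27 and -0.13 in their bed nucleus, and passed the test in none. 

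Between the lines, the response to the knockout differed for none of the 10 by the same test, where 0.00516% of all genes were called in the hippocampus and 0.00515% in the bed nucleus. For Mt2 in the hippocampus, the Nex log2 fold change minus the Dlx one was -1.72 (SE 0.69, unadjusted p 0.016) with and -0.67 (SE 0.51) without replicate 8, and the other 9 had an unadjusted p over 0.05. With all libraries 3.63% of all genes had an unadjusted p under 0.05 there. Among wild types, Nex against Dlx, none of the 10 was called, where 0% of all genes were called in hippocampus males, 0% in hippocampus females, 0.597% in bed nucleus males and 0.695% in bed nucleus females, and 0 of the 10 had an unadjusted p under 0.05. Of all genes 5.60% to 13.8% had one in these 4 comparisons. Tsc22d3 in the bed nucleus of wild-type males had 38.6 to 73.1 CPM, median 58.5, in the Nex line and 60.7 to 73.0 CPM, median 71.0, in the Dlx line (-0.29, SE 0.14, adjusted p 0.364, edgeR's quasi-likelihood test). All Dlx libraries lay above the Nex median and within the Nex range. Limma with library quality weights called 1 of the 10 in bed nucleus males and 1 in bed nucleus females, and DESeq2 called 0 in all 4 comparisons of the lines. No group holds animals of both lines, so line and cohort cannot be told apart.

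Whether a target's level went together in both regions was asked of 42 pairs of libraries with the same number in hippocampus and bed nucleus, on deviations of log2(CPM + 0.5) from the group means. The labels do not say that a number marks 1 animal. Sgk1 had a Pearson r of 0.67 (permutation p 0.00012) and a Spearman rho of 0.52 (permutation p 0.00175), an r that 0.108% of 15755 genes reached, while the median gene had 0.05. Without the 2 pairs farthest from the median in the hippocampus it was 0.51, within the Nex line 0.47 (permutation p 0.0721, n = 21) and within the Dlx line 0.79 (permutation p 0.00039, n = 21), and without replicate 8 it was 0.64. Number 6 of the Dlx knockout females had the highest Sgk1 of all libraries in both regions, with 112 CPM in the hippocampus and 188 CPM in the bed nucleus. For Per1 r was 0.42 (permutation p 0.0249) and rho 0.34 (permutation p 0.0501). Its r was 0.19 without the 2 farthest pairs and 0.30 (permutation p 0.122) without replicate 8, so the pooled r depends on few pairs. Within the Nex line the r of Per1 was 0.50 (permutation p 0.0607). Within the Dlx line it was 0.36 (permutation p 0.166), and 0.09 (permutation p 0.743) without replicate 8. For Mt2 r was 0.33 (permutation p 0.0298) and rho 0.38 (permutation p 0.0296), with 0.47 without the 2 farthest pairs, 0.45 without replicate 8, 0.18 (permutation p 0.0832) with a pseudocount of 5, 0.40 (permutation p 0.157) within the Nex line and 0.30 (permutation p 0.0492) within the Dlx line, and 4.30% of genes reached it. For Tsc22d3 r was -0.14 (permutation p 0.389), and for the other 6 genes it was 0.07 to 0.26 with permutation p of 0.141 or more with all libraries. Without replicate 8 Zbtb16 had an r of 0.26 (permutation p 0.0283), and 0.38 (permutation p 0.00766) within the Dlx line. These are 10 relations with unadjusted p.

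**Figure D4:**
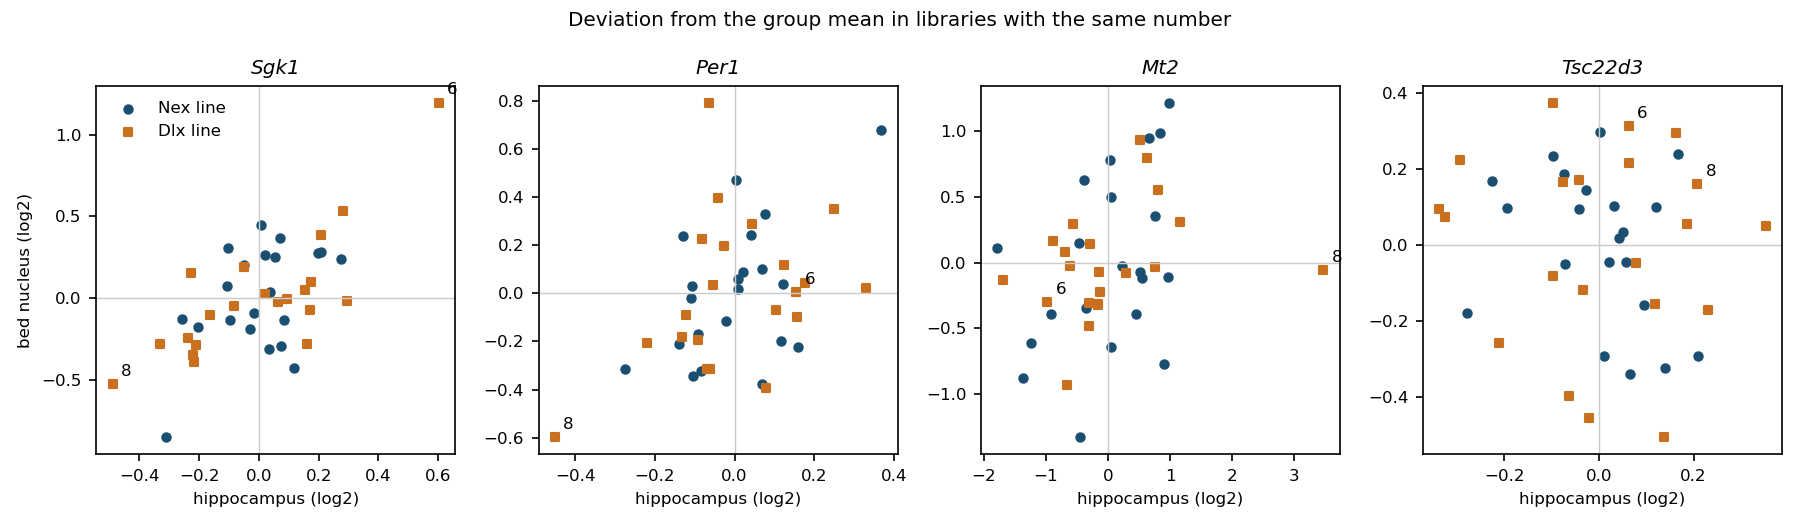
Deviations of log2(CPM + 0.5) from the group mean in the hippocampus (x axis) and in the bed nucleus (y axis) for Sgk1, Per1, Mt2 and Tsc22d3, one point per pair of libraries with the same line, sex, genotype and number. Number 6 of the Dlx knockout females is at the upper right for Sgk1, where r is 0.67, and Tsc22d3 shows no such slope with an r of -0.14.

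Within a region, each of the other 9 targets was set against Tsc22d3. In the bed nucleus (n = 48 libraries, deviations from group means) Per1 ran against Tsc22d3, with r = -0.70 (permutation p 2e-05), rho = -0.67, r = -0.67 without the 2 farthest libraries, -0.65 within the Nex line and -0.74 within the Dlx line. Cdkn1a had r = -0.51 (permutation p 0.00114) and rho = -0.42 with Tsc22d3, with -0.75 in the Nex line and -0.15 in the Dlx line (permutation p 0.542). Klf9 had r = -0.44 (permutation p 0.00522) and rho = -0.43, with -0.74 in the Nex line and -0.20 in the Dlx line (permutation p 0.399), so both of these did not hold within the Dlx line. In the hippocampus (n = 47) Cdkn1a had r = 0.51 (permutation p 0.00145) and rho = 0.44 with Tsc22d3, with 0.44 without the 2 farthest libraries, 0.47 and 0.54 within the Nex and Dlx lines, and 0.48 without replicate 8. Klf9 had r = -0.26 (permutation p 0.00411), and -0.45 (permutation p 0.0177) without replicate 8. Zbtb16 had r = -0.34 (permutation p 0.0271), which was -0.31 (permutation p 0.128) without replicate 8, 0.04 within the Nex line and -0.51 within the Dlx line. These belong to 18 relations with unadjusted p, and the share of all genes that reach each r is not given here.

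Summed cell-type markers moved with these genes among the bed nucleus libraries. As a description across the 48 libraries, without a test, the summed level of the 10 hippocampal and cortical glutamatergic markers had r = -0.87 with Tsc22d3, 0.86 with Per1, 0.60 with Klf9, 0.60 with Cdkn1a and 0.51 with Sgk1. That sum ranged from 878 to 1891 CPM, median 1307, and the range included Dlx females with 883 to 1891 CPM in knockouts and 878 to 1732 CPM in wild types. Of its 10 markers Camk2a had the highest median there, 852 CPM, and Emx1 the lowest, 0.13 CPM. The sum therefore weights Camk2a most. The 10 immediate early genes had r = 0.88 with Per1 and -0.64 with Tsc22d3, the 8 oligodendrocyte markers 0.70 with Tsc22d3 and the 10 GABAergic and ventral forebrain markers 0.58. The part of tissue makeup in the relation of Tsc22d3 and Per1 was not tested. The 5 genes whose deviations were nearest to those of Tsc22d3 in the bed nucleus were Fam189a2, Lgi3, St8sia5, Hapln4 and Nefh, with r from 0.92 to 0.89 over 48 libraries. In the hippocampus they were Rap1gap, Lhfp, Relt, Dusp15 and Arsa, with r from 0.74 to 0.73 over 47 libraries, and without replicate 8 Vwc2, Zbtb7b, Anxa5, Rgs3 and Tubb3. None of the 10 targets was among them.

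**Figure D5:**
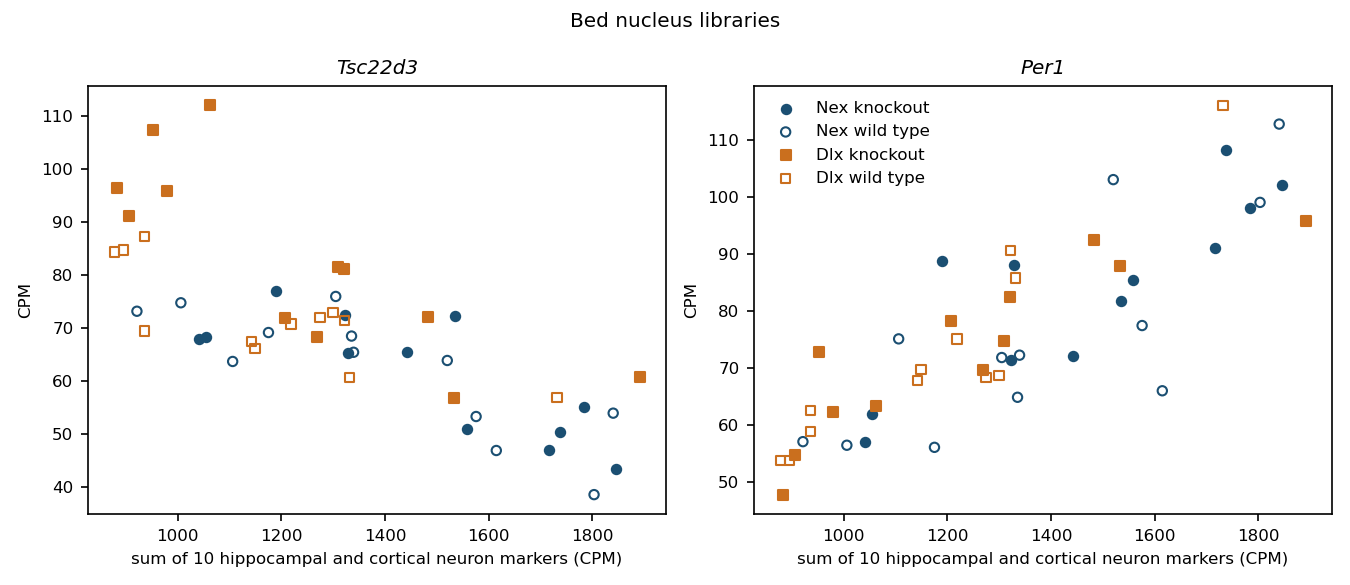
CPM of Tsc22d3 and of Per1 in the 48 bed nucleus libraries against the summed CPM of 10 hippocampal and cortical glutamatergic neuron markers (x axis). Tsc22d3 is lower and Per1 higher toward the right of the axis, which spans 878 to 1891 CPM, with correlations of deviations of -0.87 and 0.86. Camk2a had the highest median of the 10 markers, 852 CPM, and weights the sum most.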

How the data were processed

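The authors deposited raw counts, not normalised, by aligning reads with HISAT2 2.0.5 and counting them in genes by featureCounts 1.5.0-p3, per the submitters' processing notes; build and strand setting are not given in the sources used here. Positions are those of the table, and 98.33% of its gene IDs found in GENCODE M21 have that annotation's GRCm38 coordinates. A further 95 FPKM columns were not used. In R 4.3.3, edgeR 4.0.16 removed low counts (filterByExpr), scaled by TMM and tested with its quasi-likelihood test, Benjamini-Hochberg adjusted over all genes, called under 0.05; SE is the absolute log2 fold change divided by the root of F. The 4 groups of a line and region shared their spread. DESeq2 1.42.0, limma 3.58.1 (voom with quality weights), relative log size factors, no filter, 2 groups only, a replicate block and leaving out each library of a line and region were alternatives. Permutation tests used log2(CPM + 0.5), exact or with 100000 shuffles within groups. Scripts were tested on simulated data. The 10 genes and all lists were chosen with earlier results of these data known. Named genes are these 10, Fkbp5, at most 4 called genes per list by fold change, and the 5 nearest to Tsc22d3. Since nothing says that libraries are separate animals beyond the stated 5 to 6 mice per condition, p-values measure the spread between libraries.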

Additional observations from a re-analysis of the deposited data

Results flagged for a closer look

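In 19 of 160 groups of 6 or 5 libraries the highest or lowest library stood apart from the rest by a gap test (Dixon) at the 95% level, which chance alone does in about 1 of 20 groups. Of these, 5 came from replicate 8 of the knockout females of the Dlx hippocampus: Zbtb16 at 8.58 CPM (others 67.7 to 98.1), Klf9 at 0.935 (177 to 216), Mt1 at 1517 (164 to 250), Mt2 at 95.2 (3.88 to 6.52) and Pdk4 at 0.880 (10.3 to 13.6). A library of the wild-type males of the Dlx hippocampus had 93.4 CPM of Klf9 (others 161 to 188) and 262 CPM of Mt1 (148 to 188). In the knockout males of the Dlx bed nucleus 1 library had 57.2 CPM of Klf9 (102 to 125) and 362 CPM of Mt1 (145 to 177). In these 3 libraries Klf9 was the lowest and Mt1 the highest of their groups. Replicate 8 aside, the wild-type male library had the lowest mitochondrial sum of the hippocampus, 26200 CPM. Its metal-responsive genes summed highest there, to 602 CPM. The knockout male library likewise had the lowest mitochondrial sum of the bed nucleus, 20759 CPM, and the highest metal-responsive sum, 488 CPM. Both male libraries are kept in the fits without replicate 8.

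Library 6 of the knockout females of the Dlx bed nucleus was high in Sgk1 with 188 CPM (others 56.8 to 83.4), in Zbtb16 with 30.8 CPM (13.8 to 16.4) and in Pdk4 with 15.6 CPM (10.8 to 12.6). Among wild types, Per1 was high in 1 library of the Nex bed nucleus females with 113 CPM (56.1 to 72.3), in library 11 of the Dlx hippocampus females with 120 CPM (86.7 to 95.9) and in library 1 of the Dlx bed nucleus females with 116 CPM (53.7 to 67.8). That library 1 also had 10.02 CPM of Cdkn1a (5.78 to 7.28). Mt1 was low in 1 library of the knockout males of the Nex hippocampus with 103 CPM (152 to 167). Mt2 was low in 1 library of the knockout females of the Nex hippocampus with 0.611 CPM (3.48 to 5.09), and high in 1 library of the wild-type males of the Dlx hippocampus with 3.69 CPM (0.774 to 1.22).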

How the results depend on the processing

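Apart from the correlations and the 4 region comparisons, 6074 values kept their side of the threshold under the alternatives, and 6 passed it under limma. No value changed sign with both fits beyond 1 SE of 0. Sign changes within 1 SE of 0 were not counted as reversals and did occur. The log2 fold change of Mt1 averaged over the sexes of the Dlx hippocampus went from 0.50 to -0.05 without replicate 8. Leaving out each library of a line and region in turn kept the count of called targets at 0. Limma with quality weights called 1 of the 10 genes in the Dlx hippocampus averaged over sexes (Mt2, 1.53, adjusted p 0.0231) and 1 in females of the Dlx bed nucleus (Mt2, 1.58, adjusted p 0.0348). It called 2 in the Dlx bed nucleus between the sexes (Mt2 and Klf9), 1 in bed nucleus males (Mt2) and 1 in bed nucleus females (Klf9) between the lines; the cause was not tested. In the region comparison of Dlx females the 2 calls became 7 under limma, 6 without replicate 8 and 5 with only the 2 groups. Per1 in Nex females lost its call with no filter, DESeq2 and only the 2 groups (adjusted p 0.0562, 0.05002 and 0.120). With the replicate block the calls between regions were 5, 7, 5 and 3 in Nex males, Nex females, Dlx males and Dlx females; Klf9 and Pdk4 of Dlx males lost theirs. Whether a number pairs the libraries was not settled. Of 42 pairs 16 correlated over 0.1, and 17 hippocampus libraries correlated best with their own number. How many would do so without pairing was not computed. Genes with a positive correlation between regions under 0.05 were 3 pooled and 0 within the Nex line. With Tsc22d3 they were 1 pooled in the hippocampus, 3 within the Nex and 2 within the Dlx line, and in the bed nucleus 0 pooled, 1 with a pseudocount of 5 and 1 within the Nex line. Counts over all genes moved more: limma against the reported count gave 10373 against 5564 for regions of Dlx females and 2325 against 42 for sexes in the Dlx hippocampus. Depth limits Mt2 and Cdkn1a most, and Mt2 is limited also by the exon bases it shares with an antisense gene.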
